A study of Mus musculus with 4 samples.

Results

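Marginal zone B cells and B-1 cells are innate-like B lymphocytes that respond quickly, often without T cell help, and are known for natural antibody. In mice, marginal zone B cells sit mainly in the spleen and depend on signalling through the receptor Notch2, whereas B-1 cells are most frequent in the body cavities. Most B cells of a lymph node are follicular. The genes described here are 10 genes associated with these innate-like subsets: Notch2, Dtx1, Asb2, Cd1d1, Cd36, S1pr3, Cd9, Myof, Plac8 and Bhlhe41. They were chosen by name as marginal zone and B-1 genes, and all 10 were found among the 23418 gene symbols of the table. The choice was meant to leave out genes shared with T cells, but whether T cells express any of the 10 was not tested. All 10 passed the filter on low counts that left 13075 genes for testing.

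The samples were B cells sorted from cervical lymph nodes, which drain the salivary glands. There were 2 libraries from NOD.B10 mice and 2 from BL/10 control mice. NOD.B10 is a congenic strain, with the C57BL/10 H2 haplotype in place of that of NOD, and serves to model Sjögren's disease, an autoimmune disease of the salivary and lacrimal glands. The labels name no treatment, age or sex, and do not say whether animals were pooled or whether libraries of 1 strain stem from different animals. The p-values therefore measure the spread between these libraries, which may be technical.

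Total counts were 19328803 and 25375678 reads in the NOD.B10 libraries and 29372751 and 26150794 reads in the BL/10 libraries. The B cell label was checked against Ms4a1, Cd79a, Cd79b, Pax5, Ebf1, Cd22 and Blk, which summed to 6860 and 6981 CPM (reads per 1000000 reads, over TMM-scaled library sizes) in NOD.B10 and to 6850 and 6694 CPM in BL/10, and 0 of these 7 genes were called by edgeR, DESeq2 or limma-voom. The 1 gene with an unadjusted p under 0.05 was Pax5, with a log2 fold change of 0.31 (edgeR adjusted p = 0.0649). With no filter Pax5 was called (adjusted p = 0.0359). Without BL/10 library 2, Pax5 was called (adjusted p = 0.0253) and 2 of the 7 genes were higher. All 12 T cell markers were called lower in NOD.B10 (background 8.63% of tested genes lower), or 11 with a replicate block. Their log2 fold changes ran from −7.80 to −0.73. Summed levels were 51.0 and 52.9 CPM in NOD.B10, against 415 and 485 CPM in BL/10. None of the 12 was at 0 over a strain. In bulk RNA, fewer cells of a type and less RNA per cell cannot be told apart, and the part of T cells or other admixed cells in the differences below was not tested.

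Per length, the 10 genes covered a wide range of levels, with Plac8, Notch2 and Dtx1 highest in each strain. In NOD.B10, Plac8 had 172 ± 7.95 RPKM (reads per kilobase of counted gene length per 1000000 reads, SD, n = 2) and Notch2 had 160 ± 8.70 RPKM, with overlapping libraries. Dtx1 followed at 62.1 ± 4.37 RPKM, then Cd36 at 12.4 ± 2.81 and Cd1d1 at 11.9 ± 0.363 RPKM, again with overlapping libraries. Below these came S1pr3 at 5.35 ± 0.705, Bhlhe41 at 3.45 ± 0.844, Cd9 at 1.42 ± 0.332, Asb2 at 0.824 ± 0.0332 and Myof at 0.275 ± 0.107 RPKM, and no neighbours in this lower stretch overlapped. In BL/10 the order of the top 5 was the same, with Plac8 at 283 ± 25.1, Notch2 at 155 ± 17.4, Dtx1 at 67.9 ± 0.493, Cd36 at 12.95 ± 3.41 and Cd1d1 at 11.8 ± 1.76 RPKM, and of these neighbours Cd36 and Cd1d1 overlapped. The lower stretch was ordered differently. In BL/10, Cd9 stood at 8.91 ± 0.183, Bhlhe41 at 7.58 ± 1.68, Myof at 3.02 ± 0.571, S1pr3 at 2.79 ± 0.317 and Asb2 at 0.762 ± 0.207 RPKM, with Myof and S1pr3 overlapping. S1pr3 thus lay above Bhlhe41, Cd9 and Myof in NOD.B10 and below them by mean level in BL/10.

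**Figure D1:**
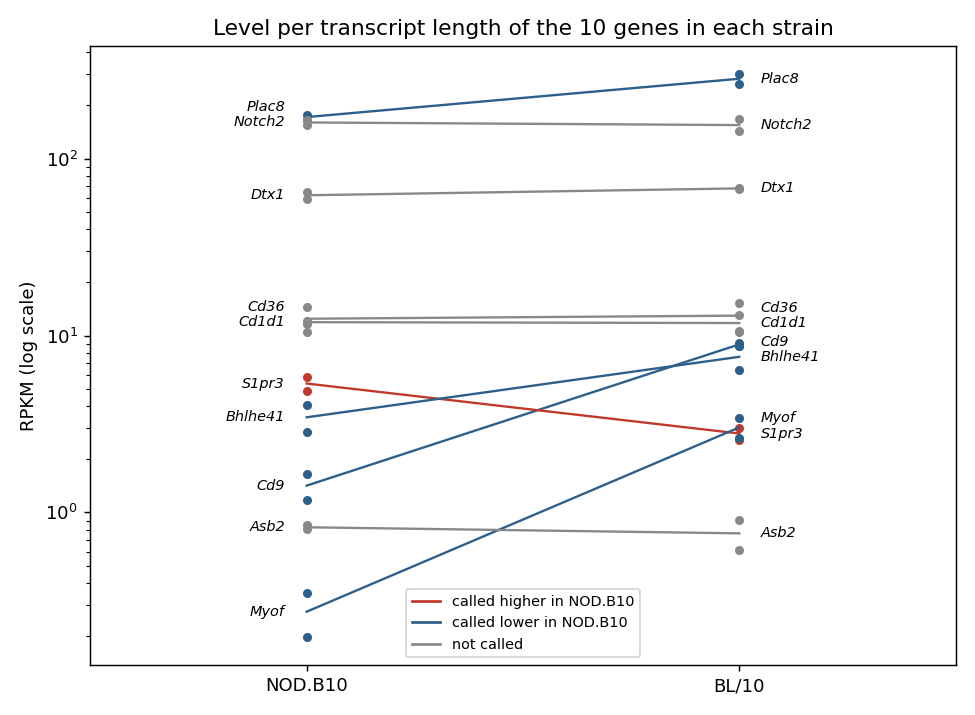
Level per counted gene length (RPKM, log axis) of the 10 genes in NOD.B10 and BL/10. Points are libraries, lines join the strain means, and colours show the call of the strain test. The lines of Notch2, Dtx1, Cd36, Cd1d1 and Asb2 are nearly flat, those of Myof, Cd9, Bhlhe41 and Plac8 are lower in NOD.B10, and that of S1pr3 is higher in NOD.B10.

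The strain comparison asks whether node B cells of NOD.B10 mice differ from BL/10 control B cells in these genes. Disease and NOD genetic background cannot be told apart in this design. Whether sequence differences between the strains affected alignment to mm10 was not tested. Of the 10 genes, 4 were called lower in NOD.B10 and 1 higher, and 5 were not called (edgeR quasi-likelihood test, Benjamini-Hochberg adjusted over all tested genes, called under 0.05). Among all genes tested, 8.63% were called lower, 6.55% higher and 15.2% in either direction. Myof, Cd9, Bhlhe41 and Plac8 fell, S1pr3 rose, and Notch2, Dtx1, Asb2, Cd1d1 and Cd36 did not pass the test. The median log2 fold change was −0.092 over the 10 genes and −0.0032 over all tested genes. The libraries of the 2 strains did not overlap for 6 of the 10 genes, the 5 called genes and Dtx1, a share close to the 55.6% of all tested genes.

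**Figure D2:**
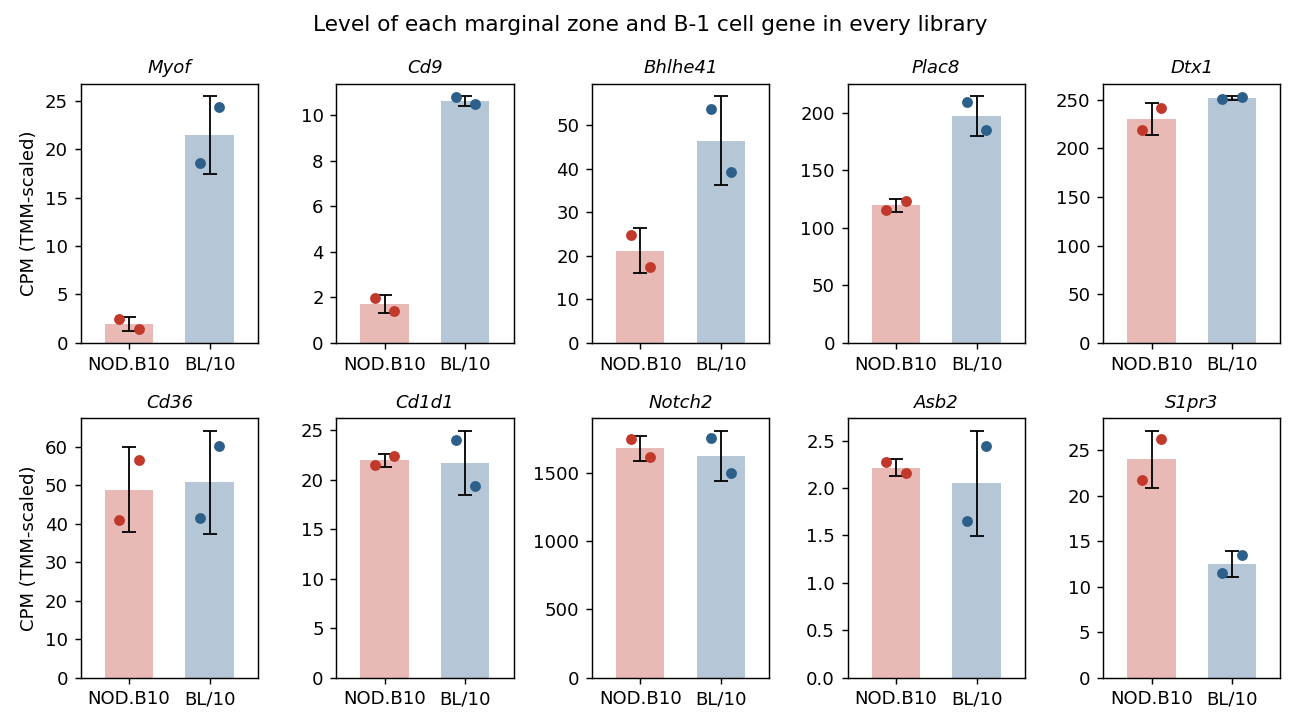
CPM over TMM-scaled library sizes of each gene in NOD.B10 and BL/10, with 1 panel a gene and linear axes from 0. Points are the 2 libraries of a strain, bars the mean and error bars the SD. For Myof, Cd9, Bhlhe41 and Plac8 both NOD.B10 libraries lie below both BL/10 libraries, and for S1pr3 both lie above.

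The Notch arm was led by the receptor itself. Notch2 (chromosome 3, 98013538 to 98150367 on GRCm38.p6), the receptor that marginal zone B cells need to form, had 1747 and 1618 CPM in NOD.B10, against 1755 and 1496 CPM in BL/10. The strains overlapped, and the log2 fold change was 0.049 (SE 0.105, adjusted p = 0.832), with a 95% interval of 0.884-fold to 1.21-fold. Its exons share 541 bases with Gm42820, an unconfirmed transcript on the same strand, so reads there could have been counted for either gene or left out. Dtx1 (chromosome 5, 120680203 to 120711867) encodes Deltex-1, a regulator of Notch signalling and itself a Notch target. It had 219 and 242 CPM in NOD.B10, against 251 and 253 CPM in BL/10. Both NOD.B10 libraries were lower, but the difference did not pass the test (adjusted p = 0.498, log2 fold change −0.13, SE 0.105, 95% interval 0.781-fold to 1.07-fold). Asb2 (chromosome 12, 103321142 to 103356001), the substrate-binding subunit of a ubiquitin ligase, was sparsely detected. Its 44 and 55 reads in NOD.B10 and 49 and 63 reads in BL/10 came to 2.28 and 2.15 CPM in NOD.B10, against 1.66 and 2.44 CPM in BL/10, with overlapping libraries. The interval for Asb2 ran from 0.555-fold to 2.11-fold, so changes within these bounds remain compatible with these counts (adjusted p = 0.912).

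The lipid-recognising surface molecules did not pass the test, with close means and overlapping libraries in the strains. Cd1d1 (chromosome 3, 86995834 to 87012358) encodes CD1d, which presents lipids to natural killer T cells and is high on marginal zone B cells. It had 21.5 and 22.4 CPM in NOD.B10, against 24.0 and 19.4 CPM in BL/10 (log2 fold change 0.016, SE 0.172, adjusted p = 0.967, 95% interval 0.782-fold to 1.31-fold). Its close copy Cd1d2 had 13 and 12 reads in NOD.B10 and 29 and 6 reads in BL/10, and reads that fit either gene could have been split between them. Cd36 (chromosome 5, 17781690 to 17888959), a scavenger receptor for fatty acids and oxidised lipoproteins, had 41.1 and 56.7 CPM in NOD.B10, against 41.4 and 60.3 CPM in BL/10. The spread within each strain exceeded the difference between the strain means, and the interval was 0.675-fold to 1.37-fold (log2 fold change −0.055, SE 0.218, adjusted p = 0.915).

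S1pr3 (chromosome 13, 51408618 to 51422797) was the member that rose. It encodes a receptor for sphingosine 1-phosphate, the lipid that guides lymphocytes between tissue and blood, and marginal zone B cells are known to carry it beside S1pr1. S1pr3 had 21.8 and 26.2 CPM in NOD.B10, from 420 and 670 reads, against 11.5 and 13.5 CPM in BL/10, from 341 and 349 reads. Both NOD.B10 libraries were higher, and the mean was 1.92-fold higher (log2 fold change 0.94, SE 0.186, adjusted p = 0.00386, 95% interval 1.45-fold to 2.54-fold). Its exons share 45 bases with Gm32834, a noncoding gene on the other strand. S1pr1, picked for comparison after its values were seen, had 438 ± 15.9 CPM in NOD.B10 and 559 ± 98.4 CPM in BL/10 (log2 fold change −0.35, SE 0.121, adjusted p = 0.0747), and was called lower without BL/10 library 2 (adjusted p = 6.85e-05), with DESeq2 (0.0459), with no filter (0.00966) and with B cell marker scaling (0.0497). Without BL/10 library 1 the log2 fold change of S1pr1 was −0.16 (adjusted p = 0.372).

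Myof and Cd9, which encode membrane proteins, had the largest falls among the 10 genes. Myof (chromosome 19, 37899036 to 38043577) encodes myoferlin, a ferlin that acts in membrane fusion and repair. It had 48 and 36 reads in NOD.B10, against 550 and 627 reads in BL/10. This amounts to 2.49 and 1.41 CPM in NOD.B10, against 18.6 and 24.3 CPM in BL/10. Both NOD.B10 libraries were far below both BL/10 libraries, and the mean was 11.0-fold lower (log2 fold change −3.48, SE 0.293, adjusted p = 4.33e-06).

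Cd9 (chromosome 6, 125460266 to 125494760) encodes a tetraspanin that is used as a surface marker of marginal zone, B-1 and antibody-secreting cells. It had 38 and 36 reads in NOD.B10, against 319 and 270 reads in BL/10. This amounts to 1.97 and 1.41 CPM in NOD.B10, against 10.8 and 10.5 CPM in BL/10. The groups were far apart relative to their spread, and the mean was 6.29-fold lower (log2 fold change −2.66, SE 0.307, adjusted p = 4.92e-05). Exons of Cd9 share 218 bases with Gm26728, a noncoding gene on the other strand, and without a stated strand setting reads of the pair cannot be told apart.

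Bhlhe41 and Plac8 fell by less. Bhlhe41 (chromosome 6, 145858243 to 145865420) encodes a basic helix-loop-helix repressor that B-1a cells need for their formation and upkeep. It had 24.8 and 17.5 CPM in NOD.B10, against 53.7 and 39.2 CPM in BL/10. Both NOD.B10 libraries were lower, and the mean was 2.20-fold lower (log2 fold change −1.14, SE 0.204, adjusted p = 0.00380). A stretch of 1280 exonic bases overlaps Gm43909, an unconfirmed transcript on the other strand. Plac8 (chromosome 5, 100551589 to 100572253), which encodes the small cysteine-rich protein onzin, had 116 and 123 CPM in NOD.B10, against 209 and 185 CPM in BL/10. Both NOD.B10 libraries were lower, and the mean was 1.65-fold lower (log2 fold change −0.72, SE 0.114, adjusted p = 0.000716).

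**Figure D3:**
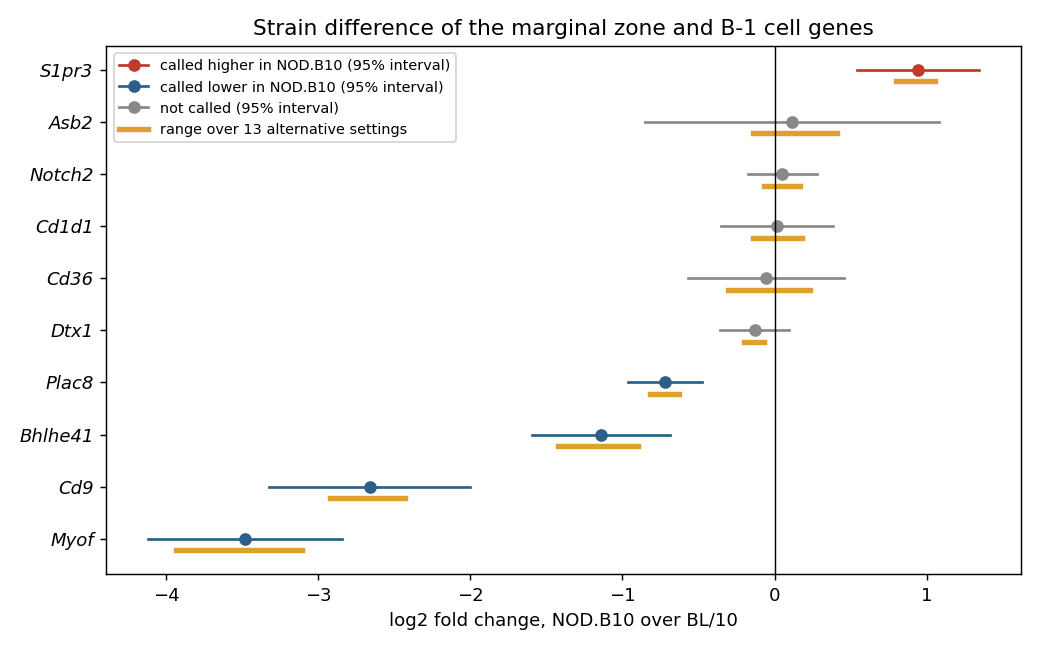
Log2 fold change of NOD.B10 over BL/10 for each gene, with its 95% interval from the edgeR test, above a bar for the range over 13 alternative settings. The intervals of Myof, Cd9, Bhlhe41 and Plac8 lie below 0 and that of S1pr3 above 0, while those of Dtx1, Cd36, Cd1d1, Notch2 and Asb2 span 0.

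Bhlhe41 has a close relative, Bhlhe40, that binds the same E-box and differed in the other direction. Bhlhe40, picked after its values were seen, had 111 and 90.6 CPM in NOD.B10, against 36.3 and 49.7 CPM in BL/10. Both NOD.B10 libraries were higher (log2 fold change 1.23, SE 0.165, adjusted p = 0.000505). Per length, Bhlhe41 and Bhlhe40 stood at 3.45 ± 0.844 and 32.4 ± 4.70 RPKM in NOD.B10, and at 7.58 ± 1.68 and 13.8 ± 3.03 RPKM in BL/10.

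The promoters of the 10 genes were searched for the motifs of factors that act in these subsets. The motifs were TGGGAA, the core bound by RBPJ, the DNA-binding partner of Notch, its longer form GTGGGAA, which contains the core, and the E-box CACGTG, the kind of site that Bhlhe41 binds. Both strands were searched. RefSeq windows on GRCm38.p6, from 250 bases before to 50 bases after a gene start, were listed for 9 of the genes, Cd1d1 not among them, with 11 windows in all. The RBPJ core was found in 4 of the 11 windows, those of Cd9 and Cd36 before the start and those of S1pr3 and Plac8 after it, against 25.6% of all 32851 windows. The longer form was found in 1, that of Cd9, against 6.38% of all windows. The E-box was found in 2, those of Asb2 and Bhlhe41, against 7.15% of all windows. The windows of Notch2, Dtx1 and Myof held none of these letters. The 4 sequences with a match before the start are shown because the RBPJ core and the E-box each occur in a gene called lower and in a gene not called. They are written 5′ to 3′ on the gene's strand, trimmed where a GENCODE M21 exon of the gene begins, with the motif in capitals. All 4 genes lie on the minus strand.
Cd9, chr6:125494792-125495010: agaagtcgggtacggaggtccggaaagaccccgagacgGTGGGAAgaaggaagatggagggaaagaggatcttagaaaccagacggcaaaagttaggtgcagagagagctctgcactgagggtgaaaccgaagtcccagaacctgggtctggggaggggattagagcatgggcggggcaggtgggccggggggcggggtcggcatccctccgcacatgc
Cd36, chr5:17835897-17836146: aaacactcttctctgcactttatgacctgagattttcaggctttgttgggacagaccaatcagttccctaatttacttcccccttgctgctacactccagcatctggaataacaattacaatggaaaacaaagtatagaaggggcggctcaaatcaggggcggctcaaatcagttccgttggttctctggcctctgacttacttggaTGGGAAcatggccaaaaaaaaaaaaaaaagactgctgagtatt
Bhlhe41, chr6:145865559-145865670: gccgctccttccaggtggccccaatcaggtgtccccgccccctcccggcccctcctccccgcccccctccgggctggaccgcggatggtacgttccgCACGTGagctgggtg
Asb2, chr12:103356002-103356251: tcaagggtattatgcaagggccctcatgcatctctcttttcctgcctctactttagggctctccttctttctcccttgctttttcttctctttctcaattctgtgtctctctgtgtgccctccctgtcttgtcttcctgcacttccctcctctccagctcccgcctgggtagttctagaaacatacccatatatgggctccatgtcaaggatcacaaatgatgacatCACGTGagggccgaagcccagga
The Cd9 match lies 212 bases and the Cd36 match 43 bases before the start, and the E-box lies 153 bases before it in Bhlhe41 and 23 bases before it in Asb2. The Cd36 window, like the Plac8 window with a match, lies inside the gene's span given above, at an internal start. Cd9 and Bhlhe41 fell in NOD.B10, whereas Cd36 and Asb2 did not pass the test. A match describes the letters of the reference sequence and is not evidence of binding.

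The rest of the Notch pathway was read beside Notch2. In 5 lists of Notch receptors, ligands, processing enzymes, nuclear partners and targets, 34 of 40 genes were tested, 3 rose, 3 fell and 28 were not called (background 15.2% of tested genes called), with a median log2 fold change of 0.064. Without BL/10 library 2 these counts were 5 higher and 4 lower, and without NOD.B10 library 2 they were 3 higher and 5 lower. Notch1, the other main lymphocyte receptor of this family and a T cell gene as well, fell to 52.9 and 56.4 CPM in NOD.B10, against 120 and 108 CPM in BL/10 (log2 fold change −1.06, SE 0.119, adjusted p = 4.10e-05), in the libraries where T cell markers were lower. Per length, Notch2 exceeded Notch1 in each strain, with Notch1 at 5.76 ± 0.259 RPKM in NOD.B10 and 11.99 ± 0.860 RPKM in BL/10. Notch4 did not pass the test (adjusted p = 0.862, log2 fold change 0.14, SE 0.353), and Notch3 had 2 reads in NOD.B10 and 37 in BL/10 and was not tested.

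Among the ligands, Dll1, which drives Notch2 in the splenic marginal zone, had 6.79 and 11.3 CPM in NOD.B10, against 4.26 and 5.31 CPM in BL/10. Its log2 fold change of 0.92 (SE 0.301) was not called (adjusted p = 0.0562), but it was called without NOD.B10 library 1 (adjusted p = 0.00233), without BL/10 library 2 (0.0410) and with no filter (0.0116). Jag1 and Jag2 were not called, with log2 fold changes of −0.80 and −0.84. Dll4 had 0 reads in NOD.B10 and 8 in BL/10, and Dll3 had 0 reads in all libraries, which allows up to 0.0669 CPM in NOD.B10 and 0.0542 CPM in BL/10 (3 reads over the strain, counting error alone).

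Of the 14 processing genes, Lfng, a glycosyltransferase that tunes Notch for its ligands, fell (log2 fold change −0.67, SE 0.125, adjusted p = 0.00248), and Pofut1, which adds fucose to Notch, rose (0.45, SE 0.115, adjusted p = 0.0170), a call lost without NOD.B10 library 1 (adjusted p = 0.144). The protease gene Adam17 also rose (0.36, SE 0.109, adjusted p = 0.0428). Leaving out BL/10 library 1 (adjusted p = 0.0935), NOD.B10 library 1 (0.0923) or 2 (0.275) ended this call, as did scaling by B cell markers, non-robust dispersion or a replicate block (0.0518 to 0.0861). Rbpj fell in the nuclear complex, 1 of 7 genes, to 34.3 and 31.5 CPM in NOD.B10, against 53.5 and 48.6 CPM in BL/10 (log2 fold change −0.63, SE 0.134, adjusted p = 0.00588). Of 8 tested targets other than Dtx1, Dtx4, another Deltex gene, rose to 26.1 and 33.8 CPM in NOD.B10, against 16.6 and 14.6 CPM in BL/10 (log2 fold change 0.94, SE 0.180, adjusted p = 0.00298). With DESeq2, limma-voom, non-robust dispersion, a replicate block or no filter, 2 targets were called higher. With RLE, upper-quartile or B cell marker scaling or a stricter filter, 1 was. Cr2, described below as a marginal zone marker, was also called higher in the former settings and not in the latter. The second target is therefore not to be read as a result apart from that of Cr2.

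Other genes of the 2 subsets were set beside the 10. Of 13 other marginal zone genes tested, 3 rose and 1 fell (background 6.55% of tested genes higher and 8.63% lower), with a median log2 fold change of 0.042. Fcrl5, an Fc receptor-like molecule of marginal zone and B-1 cells, rose to 112 and 126 CPM in NOD.B10, against 35.9 and 35.5 CPM in BL/10 (log2 fold change 1.74, SE 0.122, adjusted p = 5.33e-07). Celsr1, an adhesion receptor, fell to 4.51 and 3.64 CPM in NOD.B10, against 13.1 and 18.96 CPM in BL/10 (log2 fold change −1.98, SE 0.261, adjusted p = 0.000164). The cannabinoid receptor gene Cnr2 and the oxysterol receptor gene Gpr183 rose by 0.34 and 0.39 (adjusted p = 0.0289 and 0.0418). Cnr2 lost its call without NOD.B10 library 1 or 2 (adjusted p = 0.163 and 0.167), with B cell marker scaling (0.0570) and with a replicate block (0.0554). Gpr183 lost its call without NOD.B10 library 1 (adjusted p = 0.503) or BL/10 library 1 (0.0529), and with RLE or B cell marker scaling, limma-voom, non-robust dispersion or a replicate block (0.0513 to 0.0794). Leaving out NOD.B10 library 1 or 2 gave 2 higher and 1 lower, and 3 higher and 2 lower, and leaving out BL/10 library 1 or 2 gave 4 higher and 2 lower, and 5 higher and 2 lower. Cr2, the complement receptor CD21 and a classic marginal zone marker, was picked after its values were seen. It had 1486 and 1729 CPM in NOD.B10, against 800 and 1167 CPM in BL/10 (log2 fold change 0.71, SE 0.187, adjusted p = 0.0538), and it was called higher in 9 of the 13 alternatives. Adjusted p ran from 1.64e-09 to 0.00152 in the 4 fits that left out a library, and was 0.00107 with a replicate block, 0.000149 with DESeq2, 0.00998 with limma-voom, 0.0132 with non-robust dispersion and 6.11e-10 with no filter. With RLE, upper-quartile or B cell marker scaling or a stricter filter Cr2 was not called (adjusted p from 0.0515 to 0.0976).

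Of 10 other B-1 genes tested, 6 fell and 1, Bhlhe40, rose (background 8.63% of tested genes lower and 6.55% higher), with a median log2 fold change of −1.19. Spn, which encodes CD43, fell to 18.5 and 12.7 CPM in NOD.B10, against 92.2 and 79.7 CPM in BL/10 (log2 fold change −2.47, SE 0.179, adjusted p = 3.39e-06). Cd5 fell to 2.70 and 1.76 CPM in NOD.B10, against 15.4 and 23.8 CPM in BL/10 (log2 fold change −3.15, SE 0.302, adjusted p = 1.78e-05). Both are also T cell genes, a kind that the choice of the 10 was meant to leave out, and these are the libraries in which T cell markers fell. Il5ra, the IL-5 receptor chain of B-1 cells, fell to 26.7 and 23.2 CPM in NOD.B10, against 66.2 and 55.1 CPM in BL/10 (log2 fold change −1.28, SE 0.146, adjusted p = 4.63e-05). Anxa2, a membrane-binding annexin, fell by 2.16 on the log2 scale (SE 0.262, adjusted p = 8.04e-05).

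Of the 9 genes listed as follicular B cell genes and reported here, 2 rose in the edgeR test (background 6.55% of tested genes higher), with a median log2 fold change of 0.024. Cd83 and Fcer2a, which encodes CD23 and is low on marginal zone and B-1 cells, rose with log2 fold changes of 0.85 and 0.57 (adjusted p = 0.000125 and 0.00287). Whether Cd83 marks follicular cells in these libraries was not tested. Leaving out BL/10 library 2 gave 3 higher and 2 lower of these genes, leaving out NOD.B10 library 1 gave 2 higher and 1 lower, and leaving out BL/10 library 1 or NOD.B10 library 2 gave 2 higher and 0 lower.

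**Figure D4:**
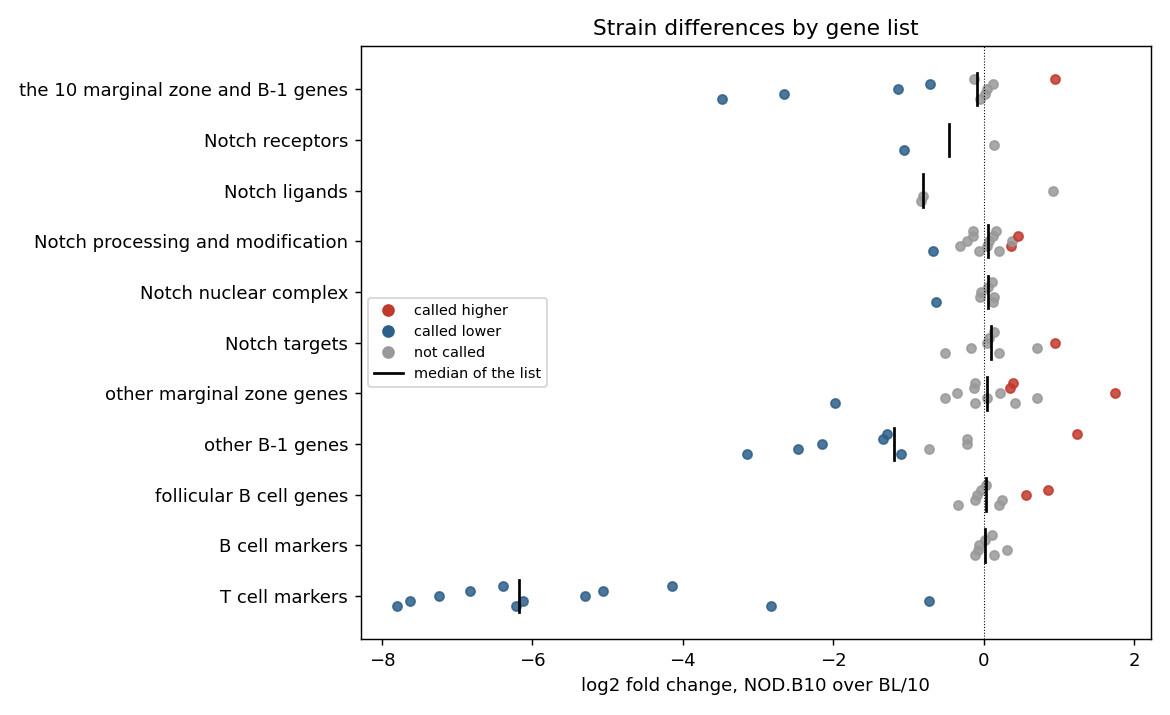
Log2 fold change of NOD.B10 over BL/10 for the tested genes reported here of the 10-gene group and of 10 other gene lists. Each point is a gene, coloured by its call, and black lines mark list medians. The 10 genes and the other B-1 genes reach down to −3.48 and −3.15, the B cell markers lie close to 0, and the T cell markers lie furthest down.

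Several of the 10 genes are also expressed by cells other than B cells, so other cell types were read in the same libraries. Myeloid cells, endothelium and platelets are known to carry Cd36 or Cd9, and plasma cells Cd9. Of all tested genes, 8.63% were lower and 6.55% higher. Of 10 macrophage and monocyte markers tested, 2 were called lower, Ccr2 and Csf1r. All 10 had log2 fold changes below 0, with a median of −0.65, against −0.0032 over all tested genes. The list summed to 35.3 and 17.4 CPM in NOD.B10, against 42.1 and 48.0 CPM in BL/10. Csf1r lost its call without BL/10 library 1 or 2 (adjusted p = 0.0512 and 0.0817) and without NOD.B10 library 2 (0.127), and the number lower was 1 without BL/10 library 2 or NOD.B10 library 2, but 5 without NOD.B10 library 1. Of 8 genes listed as dendritic cell markers and tested, 4 were called lower, with Itgax and Klk1 at the smallest adjusted p. The median log2 fold change of the 8 was −0.87, with 7 below 0. The list summed to 31.4 and 26.0 CPM in NOD.B10, against 44.7 and 59.0 CPM in BL/10. These sums include Klk1, at 0.415 and 1.02 CPM in NOD.B10 against 5.20 and 11.7 CPM in BL/10. Whether its reads came from dendritic cells or from the salivary glands that these nodes drain was not tested. All 5 natural killer cell markers tested fell, or 3 without BL/10 library 2, with sums of 2.70 and 3.84 CPM in NOD.B10, against 12.8 and 20.3 CPM in BL/10, and Klrk1, Klrd1 and Gzma had 0 reads in NOD.B10.

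Platelet markers were near 0, with sums of 2.59 and 1.33 CPM in NOD.B10 and 1.89 and 1.74 CPM in BL/10, 0 of 2 tested called by edgeR, DESeq2 or limma-voom, 0 with an unadjusted p under 0.05, and Pf4, Ppbp and Gp1bb at 0 reads in NOD.B10. The smallest unadjusted p among them belonged to Gp9, with 30 reads in NOD.B10 and 17 in BL/10 (edgeR adjusted p = 0.388). Of 3 endothelial and stromal markers tested, Pdgfrb rose, with 47 reads in NOD.B10 and 2 in BL/10, a call lost without NOD.B10 library 1 (adjusted p = 0.0621) or BL/10 library 1 (0.0976). The list summed to 417 and 427 CPM in NOD.B10, against 368 and 359 CPM in BL/10, and Emcn had 0 reads in both strains. Only 3 of the 8 listed genes passed the filter on low counts, and Pdgfrb was a small part of the endothelial and stromal sums. Nearly all of these sums therefore came from the other tested genes of the list. Whether those reads came from endothelial and stromal cells or from B cells was not tested. Of 5 plasma cell markers tested, Prdm1 and Tnfrsf17 fell, though neither did without BL/10 library 1 (adjusted p = 0.329 and 0.176) and Prdm1 did not with limma-voom (0.0641), while that list summed to 518 and 467 CPM in NOD.B10, against 520 and 445 CPM in BL/10. Without any other single library 3 plasma cell markers were lower. Prdm1 and Tnfrsf17 were a small part of the plasma cell sums. Prdm1, the higher of them, had 4.66 and 4.54 CPM in NOD.B10, against 14.7 and 7.29 CPM in BL/10. Whether B cells other than plasma cells gave the rest was not tested. The T cell markers with the smallest adjusted p were Bcl11b, at 0.674 and 0.431 CPM in NOD.B10 against 57.3 and 66.1 CPM in BL/10, and Tcf7, at 2.54 and 1.80 CPM in NOD.B10 against 63.3 and 80.5 CPM in BL/10. The part of these cell types in the levels of Myof, Cd9, Bhlhe41, Plac8 and S1pr3 was not tested.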

How the data were processed

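The authors deposited 1 table of raw read counts per gene symbol, with the counted exon length of each gene, for 4 libraries. Per the submitters' processing notes, the tools were HISAT2 2.1.0, SAMtools 1.3, Subread 1.6.5 and featureCounts, with build mm10. The annotation, strand setting and treatment of multiply aligned reads are not given in the sources used here. Columns were matched to samples by library name.

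Counts were tested with edgeR 4.0.16 in R 4.3.3 (filterByExpr with minimum count 10 and minimum total 15, TMM, robust glmQLFit, glmQLFTest, two-sided, Benjamini-Hochberg over 13075 genes), after a check on simulated data. SE is the unshrunken log2 fold change divided by the root of its F statistic, and 95% intervals use its t distribution. The 10 genes, the 16 other lists and the rule for named genes (all of the 10 genes and all Notch receptors and ligands, up to 4 called genes of each other B cell or Notch list, up to 2 of each cell type list, or the gene of smallest p) were chosen with earlier results of these data known. Alternatives used DESeq2 1.42.0, limma 3.58.1, other scalings and filters, a replicate block and libraries left out. Some listed genes are not reported here, and counts, medians and sums of lists are over the other genes, while B cell marker scaling used the whole list. Marker symbols Adgre1, Jchain and Ackr3 did not match a row and were not used here. Positions come from RefSeq GRCm38.p6, the assembly of mm10.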

Additional observations from a re-analysis of the deposited data

How the results depend on the processing

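The calls of Myof, Cd9, Bhlhe41 and Plac8 as lower and of S1pr3 as higher held under each of the 13 alternatives (RLE, upper-quartile and B cell marker scaling, no filter, a stricter filter, DESeq2, limma-voom, non-robust dispersion, a replicate block and each library left out), so 4 genes were lower and 1 higher every time. Log2 fold changes ran from −3.93 to −3.10 for Myof, −2.92 to −2.43 for Cd9, −1.42 to −0.90 for Bhlhe41, −0.82 to −0.63 for Plac8 and 0.80 to 1.06 for S1pr3. None of the 5 genes that were not called became called. Dtx1 stayed below 0 under all 13 alternatives, from −0.20 to −0.069, but the signs of the others turned. With 1 library left out, Cd1d1 ran from −0.14 to 0.18 and Asb2 from −0.14 to 0.41. Likewise, Cd36 ran from −0.31 to 0.23 and Notch2 from −0.072 to 0.17. Cd1d1 was −0.018 with B cell marker scaling. Notch4, which is not one of the 10 genes, ran from −0.58 to 0.59 with 1 library left out. The cause of these sign changes was not tested. Over all genes, 586 to 993 were higher and 1010 to 1228 lower with 1 library left out. With a replicate block, 760 were higher and 1042 lower. Same-numbered libraries did not deviate together (r = −0.0165), so the numbers are not taken as pairs. With 1 library left out, the lone library of a strain is assumed to vary like the others. Low counts limit Asb2, Cd9 and Myof in NOD.B10.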
